A study of Homo sapiens and Mus musculus with 56 samples.

Results

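MHC class II molecules carry peptides from endosomes to the cell surface, where CD4+ T cells read them. The data described here are those of 10 human genes of that pathway and 8 mouse counterparts in leukemia cells exposed to EPZ004777, which blocks DOT1L, a histone H3 lysine methyltransferase, to MI-2-2, which blocks the binding of menin to MLL, or to both compounds together. The members were taken by gene symbol: HLA-DRA, HLA-DRB1, HLA-DPA1, HLA-DPB1, HLA-DQA1, HLA-DMA, HLA-DMB, HLA-DOA, CD74 and CIITA in the human lines, and H2-Aa, H2-Ab1, H2-Eb1, H2-DMa, H2-DMb1, H2-Oa, Cd74 and Ciita in the mouse cells. They are 10 of 19775 human genes, measured by 30 of 54675 probe sets, and 8 of 18194 mouse genes, measured by 17 of 45101 probe sets.

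Total RNA was measured on 56 arrays, 44 of human lines and 12 of mouse cells. RS4;11 and SEM are B-lineage acute lymphoblastic leukemia lines with a KMT2A-AFF1 (MLL-AF4) fusion, and REH is a B-lineage line without a KMT2A fusion. These 3 lines were treated for 6 days with 3 µM EPZ004777, with 10 µM MI-2-2, with the combination, or with DMSO, the solvent. MOLM-13, an acute myeloid leukemia line with an MLL-AF9 fusion, and mouse leukemic cells transformed with MLL-AF9 were treated for 4 days with 3 µM EPZ004777, 3 µM MI-2-2, the combination, or DMSO. The labels give no separate doses for the combination, which is read here as the doses of the single compounds. RS4;11 had 3 arrays per treatment and 2 with DMSO, SEM had 3 arrays with EPZ004777 and 2 in each other group, and the mouse cells, MOLM-13 and REH had 3 arrays per group. The replicates are labelled as biological, but each human line is a single line, and the mouse cells were grown with IL-3, IL-6 and stem cell factor in the medium.

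Class II molecules are dimers of an alpha and a beta chain. HLA-DRA and HLA-DRB1, HLA-DPA1 and HLA-DPB1, and HLA-DQA1 with its partner HLA-DQB1 encode the chains that bind peptide, and in mice H2-Aa with H2-Ab1, and H2-Eb1, do so. CD74, the invariant chain, holds the binding groove closed until the complex reaches the endosome. There HLA-DM (HLA-DMA and HLA-DMB) exchanges the remnant of CD74 for peptide, and HLA-DO, whose alpha chain is HLA-DOA, restrains HLA-DM in B cells. CIITA is a co-activator that binds no DNA itself but is recruited to the promoters of these genes by factors bound at the X and Y boxes (RFX and NF-Y complexes). B cells make class II molecules constitutively, and monocytic cells make them at lower or inducible levels.

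Since the class II genes are known to share these promoter elements, the promoters of HLA-DMB and HLA-DMA, the genes with the changes described most fully below, are shown with those of HLA-DRB1, a peptide-binding chain, and HLA-DOA, which moved the other way in SEM. Each is 300 bases from RefSeq on GRCh38.p14, from 250 bases before the annotated gene start to 50 bases from it on, read 5′ to 3′ on the strand of the gene, and all lie on the minus strand of chromosome 6: HLA-DMB at chr6:32940979-32941278, HLA-DMA at chr6:32953048-32953347, HLA-DRB1 at chr6:32589799-32590098 and HLA-DOA at chr6:33009542-33009841. Capitals mark matches to GNNACNGAT, taken as the core of the X box, and to ATTGG, the core of the Y box, on either strand.
HLA-DMB: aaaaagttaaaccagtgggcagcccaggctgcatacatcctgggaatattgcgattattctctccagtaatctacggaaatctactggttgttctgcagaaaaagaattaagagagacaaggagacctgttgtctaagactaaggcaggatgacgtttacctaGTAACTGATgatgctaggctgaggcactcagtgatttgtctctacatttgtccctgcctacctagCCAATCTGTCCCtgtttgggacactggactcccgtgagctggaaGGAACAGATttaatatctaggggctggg
HLA-DMA: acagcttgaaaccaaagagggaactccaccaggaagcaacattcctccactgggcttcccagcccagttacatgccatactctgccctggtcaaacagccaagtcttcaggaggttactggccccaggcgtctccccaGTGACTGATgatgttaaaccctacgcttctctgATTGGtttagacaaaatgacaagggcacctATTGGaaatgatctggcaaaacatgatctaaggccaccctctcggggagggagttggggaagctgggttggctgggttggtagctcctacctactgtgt
HLA-DRB1: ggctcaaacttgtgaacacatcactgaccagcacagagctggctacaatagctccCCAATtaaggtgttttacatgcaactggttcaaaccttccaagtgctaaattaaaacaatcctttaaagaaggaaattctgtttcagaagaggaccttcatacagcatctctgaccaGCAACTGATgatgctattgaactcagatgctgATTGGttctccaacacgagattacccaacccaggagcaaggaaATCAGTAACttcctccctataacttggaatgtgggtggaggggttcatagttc
HLA-DOA: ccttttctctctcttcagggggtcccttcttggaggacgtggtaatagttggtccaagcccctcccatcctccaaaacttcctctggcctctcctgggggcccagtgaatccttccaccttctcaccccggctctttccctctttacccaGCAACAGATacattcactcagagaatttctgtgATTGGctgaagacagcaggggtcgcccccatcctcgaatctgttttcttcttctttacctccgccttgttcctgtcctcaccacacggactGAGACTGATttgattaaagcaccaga
On the strand of the gene, HLA-DMA holds GTGACTGAT 112 bases before its start, HLA-DRB1 holds GCAACTGAT 78 bases before it, and HLA-DOA holds GCAACAGAT 100 bases before it. In these 3 promoters ATTGG follows after a gap of 24, 23 and 24 bases in that order. HLA-DMB holds GTAACTGAT 87 bases before its start, with no ATTGG after it on that strand, and its CCAAT overlaps a reverse match to the X motif. Of 35116 promoters of the same length, 2301 (6.55%) held GNNACNGAT on either strand, 12155 (34.6%) held ATTGG on either strand, and 292 (0.832%) held both in order on the same strand. Among 9 promoters of the 8 member genes found in the table, 4 held the first, 7 the second and 3 the ordered pair. HLA-DRA and CIITA are named only.

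Signals are log2 values after robust multi-array averaging (RMA), so that 1 unit is a 2-fold difference, and a difference is given as the first group minus the second with its standard error. Each gene is represented by 1 probe set. It was tested with limma across all probe sets of the cell model that passed a filter on dim signals, and it was called where the p-value, adjusted over all of them by Benjamini and Hochberg's method, was under 0.05. The probe sets used for HLA-DRB1, HLA-DPB1, HLA-DMA, H2-Ab1 and H2-Aa are of types that may also bind related transcripts. Values of different probe sets are not compared by level, and in these bulk RNA samples fewer expressing cells and less RNA per cell cannot be told apart. The number of arrays per group, 2 or 3, limits the precision.

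Cell type markers were checked first. In RS4;11 and SEM 5 of 5 measured B-lineage markers were above percentile 40 of every DMSO array, in REH 4 of 5 and in MOLM-13 2 of 5. Of 6 myeloid markers, 6 were above it in the mouse cells and MOLM-13, 4 in RS4;11 and SEM and 3 in REH. None of 4 T cell markers was above it in the lymphoid lines. Of 3 natural killer markers 1 was above it in each cell model. Of 3 stroma markers 1 was above it in each human line and 0 in the mouse cells, so sums of these lists rest largely on dim probe sets. The MOLM-13 arrays had medians of 6.18 to 6.25, against 5.54 to 5.66 in the other human lines, so their levels are given as percentiles of the array and are not tested against the other lines. The 3′ minus 5′ signal of actin, a measure of RNA integrity, was 1.83 to 1.93 on SEM arrays with MI-2-2 or the combination, against 2.32 to 2.48 with EPZ004777 or DMSO. On REH DMSO replicates 1 and 3 it was 3.11 and 3.65, against 2.36 to 2.87 on the 9 treated REH arrays, and 1 further DMSO array had 2.75. On the mouse combination arrays it ranged from 0.478 to 1.99, against 0.49 to 0.628 with DMSO.

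With DMSO alone, most class II genes had lower signals in the lines with a KMT2A-AFF1 fusion than in REH. HLA-DMB averaged 8.98 ± 0.04 in RS4;11 (SD, n = 2) and 7.95 ± 0.07 in SEM (SD, n = 2), against 10.28 ± 0.28 in REH (SD, n = 3). The differences from REH were -1.29 ± 0.18 for RS4;11 (limma, adjusted p = 0.000301) and -2.32 ± 0.18 for SEM (limma, adjusted p = 4.48e-06). HLA-DMA, its partner chain, differed from REH by -0.79 ± 0.17 in RS4;11 (limma, adjusted p = 0.00442) and by -1.42 ± 0.17 in SEM (limma, adjusted p = 0.000102). SEM was also below RS4;11 for HLA-DMB (-1.03 ± 0.19, adjusted p = 0.00472, limma) and for HLA-DMA (-0.63 ± 0.18, adjusted p = 0.0421, limma).

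By their representative probe sets, 8 of the 10 genes were lower in RS4;11 than in REH and 7 lower in SEM than in REH. HLA-DQA1 was called higher in both (6.12 and 4.76), but by a probe set under percentile 40 in REH. A probe set shared with HLA-DQA2 (3.17 in RS4;11 and 2.02 in SEM) and a further one (2.26 and 1.07) were also called higher. Another HLA-DQA1 probe set, which had signal in REH, was called lower, at -2.05 (adjusted p = 5.86e-05, limma) in RS4;11 and -1.81 (adjusted p = 0.000127) in SEM, so the direction depends on the probe set. So it does for HLA-DOA in SEM, counted as lower (-0.41, adjusted p = 0.041, limma). Another HLA-DOA probe set was called higher there (0.44, adjusted p = 0.00656), and its remaining tested probe sets were not called. The background is large, since 37.9% and 40.1% of 38294 probe sets differed in these comparisons. SEM and RS4;11 differed in 5 of the 10, against 17.2% of all probe sets: HLA-DPB1 and HLA-DOA were higher in SEM, and HLA-DQA1, HLA-DMA and HLA-DMB lower. Without any 1 of the DMSO arrays of these 2 lines 1 gene was called. HLA-DRA stood at percentile 99 to 99.1 in RS4;11 and SEM and at 99.4 to 99.7 in REH, and CD74 at 99.2 to 99.3 against 99.4 to 99.6, so the leading chains were near the top of every lymphoid array. CIITA averaged 9.67 in RS4;11, 9.86 in SEM and 9.43 in REH, and no pair of these lines was called (adjusted p = 0.266 for RS4;11 minus REH, 0.052 for SEM minus REH and 0.527 for SEM minus RS4;11, limma). The SEM arrays, at 9.81 and 9.92, lay above the REH arrays, at 9.66, 9.28 and 9.34.

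The order of DMSO levels was REH, SEM, RS4;11 for HLA-DRA, with SEM and RS4;11 not separated (0.03 ± 0.19, adjusted p = 0.947, limma). It was the same, with SEM and RS4;11 not separated, for CD74 (0.02 ± 0.13, adjusted p = 0.953) and HLA-DPA1 (0.18 ± 0.23, adjusted p = 0.693), where SEM was not separated from REH either (-0.54 ± 0.21, adjusted p = 0.07). This depends on the probe set. Both other CD74 probe sets were called higher in SEM than in RS4;11 (0.735 and 0.695, adjusted p = 0.0181 and 0.0451, limma). Of the other HLA-DPA1 probe sets one was called higher in SEM than in RS4;11 (0.497, adjusted p = 0.0188) and one was not (0.1055). Both were called lower in SEM than in REH (-0.66 and -1.16). HLA-DRB1 ran REH, RS4;11, SEM, again with the last pair not separated (-0.04 ± 0.19, adjusted p = 0.931). In MOLM-13 the DMSO signal of HLA-DRA lay at percentile 79.4 to 82.5, that of HLA-DRB1 at 72.4 to 75.4, that of HLA-DMA at 74.7 to 76.3 and that of HLA-DMB at 58.2 to 61.9. CD74 reached 94.3 to 94.8 there, CIITA only 42.6 to 48.8, and HLA-DPA1, HLA-DQA1 and HLA-DOA were under percentile 40 on all 12 arrays of the line. In the mouse cells H2-DMa lay at 81.3 to 84.7, H2-Ab1 at 69.8 to 77.4 and Cd74 at 61 to 62.1, while Ciita was under percentile 40 on all 3 DMSO arrays.

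In RS4;11 6 of the 10 genes rose with the combination and none was lower, and the HLA-DM chains had the largest changes. HLA-DMB had 10.24, 10.29 and 10.22 with the combination, 9.27, 9.16 and 9.09 with EPZ004777 and 9.56, 9.74 and 9.60 with MI-2-2, against 8.96 and 9.01 with DMSO. Every treated array was above both DMSO arrays, and the combination arrays were above those of each single compound. The change was 1.27 ± 0.08 with the combination (limma, adjusted p = 2.74e-06), 0.65 ± 0.08 with MI-2-2 (adjusted p = 0.000882) and 0.19 ± 0.08 with EPZ004777 (adjusted p = 0.21). HLA-DMA, the alpha chain of the same exchange factor, had 11.54, 11.54 and 11.68 with the combination, 10.87, 10.89 and 10.95 with EPZ004777 and 11.17, 11.17 and 11.18 with MI-2-2, against 10.85 and 10.77 with DMSO. It rose by 0.77 ± 0.07 with the combination (limma, adjusted p = 3.85e-05) and by 0.36 ± 0.07 with MI-2-2 (adjusted p = 0.00988). Without DMSO replicate 3 the MI-2-2 change was not called (0.32, adjusted p = 0.0929).

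Among the peptide-binding chains of RS4;11, HLA-DQA1 had 10.34, 10.52 and 10.45 with the combination, 9.86, 9.80 and 9.89 with EPZ004777 and 10.05, 9.89 and 10.12 with MI-2-2, against 9.73 and 9.73 with DMSO, and it rose by 0.71 ± 0.09 with the combination (limma, adjusted p = 0.000274). HLA-DRA had 13.12, 13.27 and 13.22 with the combination, 13.03, 12.99 and 13.06 with EPZ004777 and 12.96, 12.93 and 12.97 with MI-2-2, against 12.87 and 12.77 with DMSO. Its rise with the combination was 0.39 ± 0.07 (adjusted p = 0.00379). HLA-DPB1 (0.37 ± 0.08, adjusted p = 0.0105) and HLA-DRB1 (0.27 ± 0.06, adjusted p = 0.0132) also rose, but HLA-DRB1 was not called without DMSO replicate 2 (adjusted p = 0.0835) or 3 (0.0689), nor HLA-DPB1 without DMSO replicate 3 (0.083). HLA-DPA1 (0.15, adjusted p = 0.192) and HLA-DOA (0.10, adjusted p = 0.367) did not pass the test.

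CD74 in RS4;11 had 13.20, 13.19 and 13.30 with the combination, 13.20, 13.15 and 13.10 with EPZ004777 and 13.11, 13.27 and 13.09 with MI-2-2, against 12.93 and 13.09 with DMSO (combination 0.22 ± 0.08, adjusted p = 0.0974, limma). CIITA, the co-activator, had 9.78, 9.64 and 9.56 with the combination, 9.93, 9.94 and 9.72 with EPZ004777 and 9.63, 9.59 and 9.53 with MI-2-2, against 9.71 and 9.62 with DMSO. Its combination and DMSO arrays overlapped, and the difference was -0.01 ± 0.09 (95% interval -0.22 to 0.20, adjusted p = 0.963, limma). The combination call in RS4;11 reached 13 of 25 tested member probe sets, all higher, against 20.2% of 34569 probe sets in either direction. The median change of the member genes was 0.32, against -0.03 over all probe sets. MI-2-2 gave 2 called genes, both higher, against 12.1%, and EPZ004777 gave 0, against 5.23%, with 2 higher at an unadjusted p under 0.05 in limma.

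The combination in RS4;11 also exceeded each compound alone. Against MI-2-2, HLA-DMB was higher by 0.61 ± 0.07 (limma, adjusted p = 0.000591), HLA-DMA by 0.41 ± 0.06 (adjusted p = 0.00339), HLA-DQA1 by 0.41 ± 0.08 (adjusted p = 0.00979) and HLA-DRA by 0.25 ± 0.06 (adjusted p = 0.0424), 4 genes against 6.37% of probe sets. The HLA-DRA call was lost without most single arrays of these groups, with adjusted p from 0.0418 to 0.131. Against EPZ004777, HLA-DMB (1.07 ± 0.07, adjusted p = 6.87e-06), HLA-DMA (0.68 ± 0.06, adjusted p = 6.13e-05), HLA-DQA1 (0.58 ± 0.08, adjusted p = 0.000572) and HLA-DPA1 (0.27 ± 0.07, adjusted p = 0.0222) were higher, 4 genes against 14.9%. HLA-DPA1 was not called in 5 of the 6 fits that each leave out 1 array, with adjusted p up to 0.0738.

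**Figure D1:**
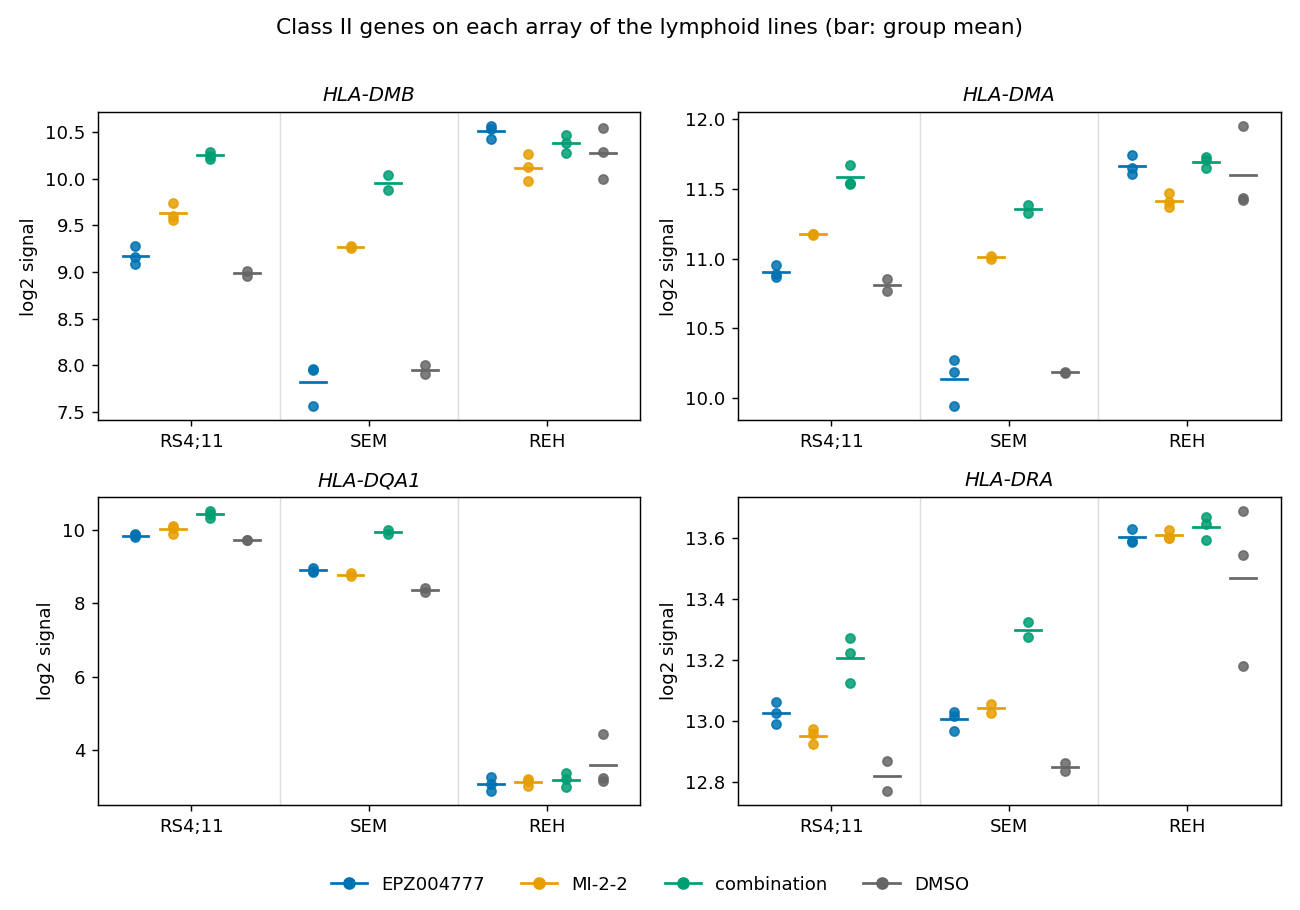
The log2 RMA signal of HLA-DMB, HLA-DMA, HLA-DQA1 and HLA-DRA on each array of RS4;11, SEM and REH, with 1 point per array, colored by treatment, and a bar at each group mean. The combination arrays of HLA-DMB lie at 10.22 to 10.29 in RS4;11 and at 9.88 and 10.04 in SEM, above their DMSO arrays, while each treated REH group overlaps the REH DMSO arrays.

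In SEM 8 of the 10 genes rose with the combination and HLA-DOA was lower. HLA-DMB had 9.88 and 10.04 with the combination, 7.96, 7.56 and 7.95 with EPZ004777 and 9.25 and 9.28 with MI-2-2, against 7.998 and 7.906 with DMSO. The combination and MI-2-2 arrays all lay above the DMSO arrays, while the EPZ004777 arrays overlapped them. The change was 2.01 ± 0.14 with the combination (limma, adjusted p = 7.18e-05), 1.32 ± 0.14 with MI-2-2 (adjusted p = 0.00142) and -0.13 ± 0.13 with EPZ004777 (adjusted p = 0.594). HLA-DMA had 11.39 and 11.33 with the combination, 10.27, 9.94 and 10.19 with EPZ004777 and 11.00 and 11.02 with MI-2-2, against 10.19 and 10.18 with DMSO. It rose by 1.17 ± 0.11 with the combination (adjusted p = 0.000301, limma) and by 0.83 ± 0.11 with MI-2-2 (adjusted p = 0.00363), and differed by -0.05 ± 0.10 with EPZ004777 (adjusted p = 0.809).

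HLA-DQA1 was the member of SEM that moved with every treatment. It had 10.01 and 9.89 with the combination, 8.97, 8.85 and 8.89 with EPZ004777 and 8.83 and 8.73 with MI-2-2, against 8.42 and 8.31 with DMSO. The change was 1.58 ± 0.09 with the combination (limma, adjusted p = 2.17e-05), 0.54 ± 0.08 with EPZ004777 (adjusted p = 0.0108) and 0.42 ± 0.09 with MI-2-2 (adjusted p = 0.0227). The EPZ004777 change was not called without either DMSO array (adjusted p = 0.0608 and 0.09), nor the MI-2-2 change without any 1 array (adjusted p from 0.0649 to 0.136). HLA-DRA had 13.27 and 13.32 with the combination, 13.03, 13.02 and 12.97 with EPZ004777 and 13.06 and 13.03 with MI-2-2, against 12.86 and 12.84 with DMSO, and rose by 0.45 ± 0.07 with the combination (limma, adjusted p = 0.00393). With the combination HLA-DRB1 (0.72 ± 0.08, adjusted p = 0.000609), HLA-DPB1 (0.53 ± 0.09, adjusted p = 0.00398) and HLA-DPA1 (0.43 ± 0.09, adjusted p = 0.0093) rose too, HLA-DPA1 not without DMSO replicate 3 (adjusted p = 0.0612). HLA-DRB1 had 12.45 and 12.53 with the combination, a mean of 11.94 with EPZ004777 and 12.13 and 12.12 with MI-2-2, against 11.80 and 11.73 with DMSO, and the MI-2-2 rise of 0.36 ± 0.08 (adjusted p = 0.0258) was lost without any 1 array.

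CD74 in SEM had 13.38 and 13.39 with the combination, 13.11, 12.99 and 13.04 with EPZ004777 and 13.23 and 13.31 with MI-2-2, against 13.04 and 13.01 with DMSO. Its rise with the combination was 0.36 ± 0.08 (limma, adjusted p = 0.0144), and it was lost without any 1 of the 4 arrays (adjusted p from 0.0639 to 0.0797). HLA-DOA, the chain of the HLA-DM inhibitor, went the other way. It had 10.95 and 10.91 with the combination, 11.25, 11.12 and 11.19 with EPZ004777 and 10.94 and 10.98 with MI-2-2, against 11.43 and 11.37 with DMSO, and it changed by -0.47 ± 0.08 with the combination (limma, adjusted p = 0.00472) and by -0.44 ± 0.08 with MI-2-2 (adjusted p = 0.0114). The MI-2-2 fall was not called without any 1 array (adjusted p from 0.0518 to 0.0797), and 3 further tested HLA-DOA probe sets, at -0.49, -0.13 and 0.20 with the combination, were not called. CIITA had 9.77 and 9.83 with the combination, 9.81, 9.79 and 9.63 with EPZ004777 and 9.58 and 9.68 with MI-2-2, against 9.81 and 9.92 with DMSO. The combination arrays overlapped the DMSO arrays (-0.06 ± 0.10, 95% interval -0.28 to 0.16, adjusted p = 0.674, limma).

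With the combination in SEM 8 genes were higher and 1 lower of 10 tested, against 23.5% of 34920 probe sets called, and 21 of 26 member probe sets were higher and 1 lower. The median change of the member genes was 0.489, against -0.033 over all probe sets. MI-2-2 called 4 higher and 1 lower, against 11.6%, and EPZ004777 called HLA-DQA1 alone, against 6.27%. Against EPZ004777 the combination was higher in 8 genes and lower in HLA-DOA, against 18.9%, with HLA-DMB at 2.14 ± 0.13 (limma, adjusted p = 5.11e-05), HLA-DMA at 1.22 ± 0.10 (adjusted p = 0.00021) and HLA-DQA1 at 1.04 ± 0.08 (adjusted p = 0.00015). With 1 array left out, 4 to 8 genes were called in place of 9. Against MI-2-2 it was higher in HLA-DQA1 (1.17 ± 0.09, adjusted p = 0.000759) and in HLA-DMB (0.69 ± 0.14, adjusted p = 0.0499), against 2.65%, and HLA-DMB was not called there without any 1 array (adjusted p from 0.155 to 0.212).

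In SEM the actin 3′ minus 5′ signal differed between the same groups as HLA-DM. With that signal as a covariate 0 of all 34920 probe sets, members included, were called with the combination or with MI-2-2 against DMSO. HLA-DMB then stood at 3.05 ± 0.66 (limma, adjusted p = 0.353), HLA-DMA at 1.65 ± 0.59 (adjusted p = 0.629) and HLA-DQA1 at 1.21 ± 0.47 (adjusted p = 0.673) with the combination. The covariate and the MI-2-2 and combination groups cannot be told apart in SEM. In RS4;11 the actin signal was 2.22 to 2.52 with the combination and 2.40 to 2.42 with DMSO, so these ranges overlapped. Myeloid markers moved with the class II genes: their summed signal was 10.01 to 10.09 with the combination in RS4;11, against 8.908 to 8.965 with DMSO, and 12.11 to 12.22 in SEM, against 9.095 to 9.13 with DMSO, with LYZ, lysozyme, higher by 6.33 in SEM. B-lineage markers summed to 14.39 to 14.49 with the combination in RS4;11, against 14.33 to 14.35 with DMSO, and to 14.1 to 14.11 in SEM, against 14.11 to 14.16 with DMSO. Stroma markers summed to 7.332 to 7.484 with the combination in RS4;11, against 6.424 to 6.882 with DMSO, and to 8.657 to 8.7 in SEM, against 6.301 to 6.469 with DMSO. Natural killer markers summed to 10.13 to 10.34 with the combination in RS4;11, against 10.37 to 10.41 with DMSO, and to 9.727 to 9.837 in SEM, against 8.912 to 9.043 with DMSO. Erythroid markers summed to 5.831 to 6.177 with the combination in RS4;11, against 5.372 to 5.539 with DMSO. Dendritic cell markers were lower in sum, at 10.9 to 10.97 against 11.16 to 11.27 with DMSO in RS4;11 and at 12.51 to 12.58 against 12.94 to 12.96 with DMSO in SEM. The part of these markers in the class II changes was not tested.

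In REH, the line without a KMT2A fusion, few probe sets of any kind were called, and no member gene was called by its representative probe set. HLA-DMB had 10.28, 10.38 and 10.47 with the combination, 10.42, 10.56 and 10.54 with EPZ004777 and 10.12, 10.26 and 9.97 with MI-2-2, against 10.55, 9.99 and 10.29 with DMSO. All 3 treated groups overlapped the DMSO arrays, and the combination difference was 0.10 ± 0.13 (95% interval -0.19 to 0.40, adjusted p = 0.718, limma). HLA-DMA had 11.65, 11.71 and 11.73 with the combination, 11.61, 11.74 and 11.65 with EPZ004777 and 11.47, 11.41 and 11.37 with MI-2-2, against 11.95, 11.42 and 11.44 with DMSO (combination 0.09 ± 0.13, adjusted p = 0.733). HLA-DRA had 13.64, 13.60 and 13.67 with the combination, 13.59, 13.59 and 13.63 with EPZ004777 and 13.60, 13.60 and 13.63 with MI-2-2, against 13.69, 13.54 and 13.18 with DMSO. The spread lay in the DMSO arrays, and the combination difference was 0.17 ± 0.12 (adjusted p = 0.458, limma).

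CD74 in REH had 13.29, 13.32 and 13.41 with the combination, 13.42, 13.46 and 13.43 with EPZ004777 and 13.19, 13.37 and 13.21 with MI-2-2, against 13.46, 13.19 and 13.45 with DMSO (combination -0.02 ± 0.10, adjusted p = 0.921, limma). CIITA had 9.67, 9.58 and 9.55 with the combination, 9.65, 9.58 and 9.25 with EPZ004777 and 9.24, 9.44 and 9.45 with MI-2-2, against 9.66, 9.28 and 9.34 with DMSO (combination 0.18 ± 0.13, adjusted p = 0.487). Of 9 tested genes 0 were called in each comparison, against 2.26% of 34629 probe sets for EPZ004777, 0.482% for MI-2-2, 4.1% for the combination, 0.0202% for the combination against EPZ004777 and 0.861% against MI-2-2. At an unadjusted p under 0.05 in limma the counts were 0, 0, 1, 0 and 1. With so few probe sets called in REH, 0 of 9 genes is near the shares above and says nothing particular about these genes. The combination arrays of HLA-DPB1, at 12.93, 12.97 and 12.78, lay above the DMSO arrays, at 12.64, 12.68 and 12.39, with 0.32 ± 0.11 (adjusted p = 0.113). Without DMSO replicates 1 and 3 together no member gene was called either.

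HLA-DQA1 differed by probe set between lines. Its representative probe set was under percentile 40 on all 12 REH arrays and was not tested there. Another probe set of the gene averaged 7.76 ± 0.15 with the combination, 7.71 ± 0.19 with EPZ004777 and 7.08 ± 0.04 with MI-2-2 in REH, against 6.91 ± 0.44 with DMSO (SD, n = 3 each). It was called with EPZ004777 (0.80 ± 0.18, limma, adjusted p = 0.046) and with the combination (0.85 ± 0.18, adjusted p = 0.0245). The same probe set was not called in RS4;11 with the combination (0.27, adjusted p = 0.154) and was called in SEM (1.18, adjusted p = 0.00107). A second HLA-DPB1 probe set averaged 7.54 ± 0.01 with the combination in REH, against 6.86 ± 0.22 with DMSO (SD, n = 3 each), and was called too (0.67 ± 0.14, adjusted p = 0.0178). In all, 2 of 25 tested member probe sets were called with the combination in REH. Stroma markers summed to 8.165 to 8.455 with the combination there, against 7.566 to 7.785 with DMSO, and natural killer markers to 7.424 to 7.445, against 7.782 to 8.229 with DMSO.

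The response was tested between lines directly, as the mean change in RS4;11 and SEM minus the change in REH, on the 32 arrays of the 3 lines, which had the same doses and days. The limit from the actin signal in SEM holds for these means with MI-2-2 and the combination. With 3 single lines the fusion cannot be told apart from other differences between the lines. For HLA-DMB the combination changes were 1.27 in RS4;11, 2.01 in SEM and 0.10 in REH, a difference of 1.53 ± 0.15 (limma, adjusted p = 5.45e-08). The MI-2-2 changes of HLA-DMB were 0.65, 1.32 and -0.16 in the same order, a difference of 1.14 ± 0.15 (adjusted p = 1.58e-05). HLA-DMA differed by 0.88 ± 0.13 for the combination (adjusted p = 2.94e-05) and by 0.78 ± 0.13 for MI-2-2 (adjusted p = 0.000324). HLA-DRB1 differed for the combination (0.46 ± 0.10, adjusted p = 0.00326). HLA-DQA1 has no usable value here from its representative probe set, which was under percentile 40 on every REH array. The HLA-DQA1 probe set with signal in REH was not called for the combination (-0.12 ± 0.20, adjusted p = 0.732) or MI-2-2 (-0.03 ± 0.20, adjusted p = 0.933), and was called lower for EPZ004777 (-0.73 ± 0.20, adjusted p = 0.0409), where it rose in REH. A probe set shared with HLA-DQA2 was called higher for the combination (1.03 ± 0.20, adjusted p = 0.000806, limma) and not for MI-2-2 (0.50 ± 0.20, adjusted p = 0.108). A further HLA-DQA1 probe set was called higher for the combination (1.37 ± 0.23, adjusted p = 0.000138) and MI-2-2 (0.85 ± 0.23, adjusted p = 0.018). The REH levels of these probe sets are not given here, and the result depends on the probe set.

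CD74 differed between the lines by 0.31 ± 0.10 for the combination (limma, adjusted p = 0.0295) and by 0.30 ± 0.10 for MI-2-2 (adjusted p = 0.0487). Without REH DMSO replicates 1 and 3, whose correlations with the mean of the treated REH arrays were 0.983 and 0.985 against 0.995 for DMSO replicate 2, the CD74 values were 0.14 (adjusted p = 0.458) and 0.13 (adjusted p = 0.586). HLA-DMB stayed at 1.25 (adjusted p = 6.97e-06) for the combination and 0.86 (adjusted p = 0.00167) for MI-2-2 without these 2 arrays, and HLA-DMA at 0.70 (adjusted p = 0.00018) and 0.60 (adjusted p = 0.00241). Without them HLA-DRA for the combination was called (0.33, adjusted p = 0.0116). HLA-DRA (0.25 ± 0.11, adjusted p = 0.105), HLA-DPA1, HLA-DPB1 and CIITA were not called for any treatment by their representative probe sets, and HLA-DOA was at -0.28 ± 0.10 for the combination (adjusted p = 0.0516). A second HLA-DPB1 probe set was called lower for the combination (-0.46 ± 0.14, adjusted p = 0.0235), with changes of 0.005 in RS4;11, 0.42 in SEM and 0.67 in REH. Counting the dim HLA-DQA1 probe set, 5 of 10 genes were called for the combination, against 17.6% of 37724 probe sets, 4 for MI-2-2, against 11.1%, and 0 for EPZ004777, against 3.45%, with 1, HLA-DQA1, at an unadjusted p under 0.05 in limma.

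**Figure D2:**
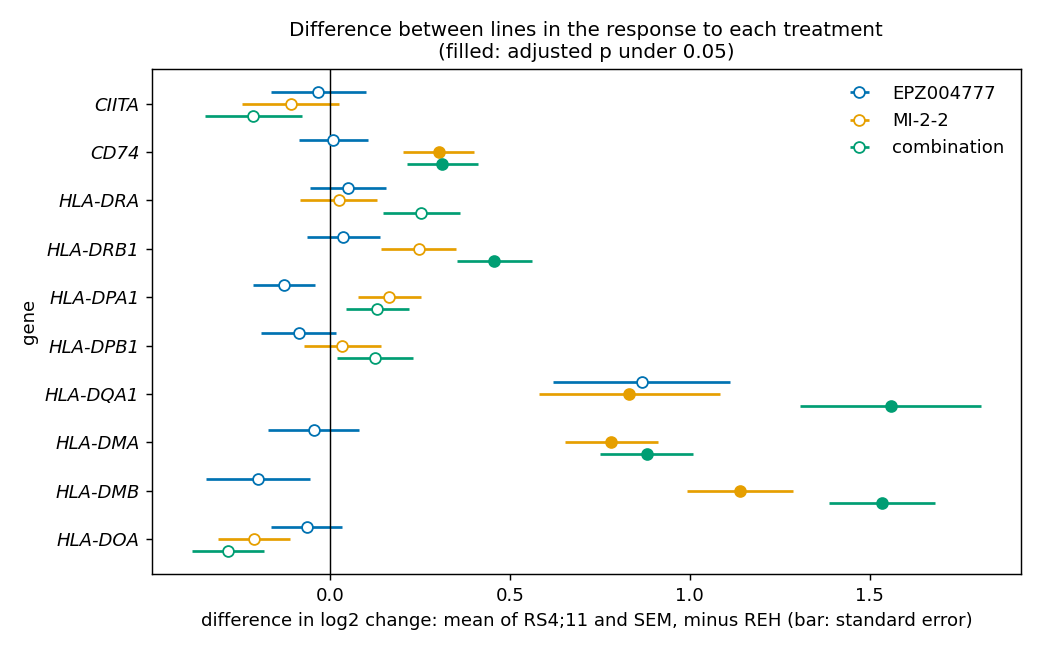
The mean change in RS4;11 and SEM minus the change in REH, in log2 units, for each member gene and treatment, with the standard error as the bar. HLA-DMB reaches 1.53 for the combination and 1.14 for MI-2-2, and the HLA-DQA1 points rest on a probe set that is dim on every REH array.

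In MOLM-13, at another MI-2-2 dose and duration, the DR chains were lower with every treatment, while CD74 was lower with MI-2-2 and higher with EPZ004777 and the combination. No test compares MOLM-13 with the other lines. HLA-DRA had 9.27, 9.40 and 9.58 with EPZ004777, 7.85, 8.17 and 8.15 with MI-2-2 and 8.27, 8.50 and 8.33 with the combination, against 10.08, 9.98 and 9.63 with DMSO. All treated arrays lay below all DMSO arrays, with EPZ004777 nearest to them. The change was -1.84 ± 0.13 with MI-2-2 (limma, adjusted p = 1.16e-05), -1.53 ± 0.13 with the combination (adjusted p = 6.26e-06) and -0.48 ± 0.13 with EPZ004777 (adjusted p = 0.0288). HLA-DRB1 had 8.40, 8.34 and 8.50 with EPZ004777, 7.04, 7.18 and 7.05 with MI-2-2 and 7.28, 7.18 and 7.21 with the combination, against 9.10, 8.66 and 8.65 with DMSO. It changed by -1.71 ± 0.11 with MI-2-2 (limma, adjusted p = 4.67e-06), by -1.58 ± 0.11 with the combination (adjusted p = 1.12e-06) and by -0.39 ± 0.11 with EPZ004777 (adjusted p = 0.0304). The EPZ004777 calls were lost without some single arrays, with adjusted p up to 0.108 for HLA-DRA and 0.0983 for HLA-DRB1.

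HLA-DMB in MOLM-13 had 7.12, 7.17 and 7.57 with EPZ004777, 6.34, 6.21 and 5.74 with MI-2-2 and 6.83, 7.20 and 6.83 with the combination, against 7.33, 6.89 and 7.10 with DMSO. Only the MI-2-2 arrays were apart from DMSO (-1.02 ± 0.18, limma, adjusted p = 0.00454), and the combination, at -0.16 ± 0.18 (adjusted p = 0.543), overlapped it. HLA-DMA had 9.25, 9.33 and 9.32 with EPZ004777, 8.24, 8.57 and 8.47 with MI-2-2 and 8.96, 8.95 and 8.82 with the combination, against 9.22, 9.14 and 8.96 with DMSO. The MI-2-2 change was -0.68 ± 0.09 (adjusted p = 0.000818, limma) and the combination change -0.19 ± 0.09 (adjusted p = 0.119). Set directly against MI-2-2, the combination was higher in HLA-DMB (0.86 ± 0.18, adjusted p = 0.00453) and HLA-DMA (0.48 ± 0.09, adjusted p = 0.00232). HLA-DRA (0.31 ± 0.13, adjusted p = 0.11) and HLA-DRB1 (0.14 ± 0.11, adjusted p = 0.398) were not called between these groups.

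CD74 in MOLM-13 had 12.39, 12.37 and 12.37 with EPZ004777, 11.73, 11.85 and 11.93 with MI-2-2 and 12.36, 12.46 and 12.41 with the combination, against 12.11, 12.09 and 12.02 with DMSO, with no overlap between any treated group and DMSO. It rose by 0.34 ± 0.06 with the combination (limma, adjusted p = 0.00102) and by 0.30 ± 0.06 with EPZ004777 (adjusted p = 0.00551), and changed by -0.24 ± 0.06 with MI-2-2 (adjusted p = 0.0271), the last lost without some single arrays (adjusted p up to 0.0772). Its other 2 probe sets also rose with the combination, by 0.45 and 0.48. CIITA had 5.56, 5.75 and 5.81 with EPZ004777, 5.50, 5.41 and 5.16 with MI-2-2 and 6.21, 5.59 and 6.25 with the combination, against 5.78, 6.09 and 5.67 with DMSO. It was not called against DMSO (MI-2-2 -0.49 ± 0.18, adjusted p = 0.0973), and in the combination it was above MI-2-2 by 0.66 ± 0.18 (limma, adjusted p = 0.0148). Some of these CIITA arrays lay under percentile 40, and that call was lost without some single arrays (adjusted p up to 0.0609). HLA-DPB1 passed the test downwards with MI-2-2 (adjusted p = 0.000846) and the combination (adjusted p = 0.000133), but these 6 arrays, at 4.97 to 5.37, were under percentile 40, so only the direction is given.

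In counts, 6 of 7 tested genes were lower with MI-2-2 in MOLM-13, against 13.7% of 34742 probe sets. HLA-DPB1, whose MI-2-2 and combination arrays were all dim, is among the 6, so its call gives a direction only. The member median of -0.722, against 0.0143 over all probe sets, is the fitted value of HLA-DPB1 and thus no measured size. With the combination 3, HLA-DPB1 among them, were lower and 1 higher, against 42%, with medians of -0.194 and 0.002. With EPZ004777 2 were lower and 1 higher, against 20.1%. The combination was lower than EPZ004777 in 4 genes, against 25.9%. They were HLA-DRB1 (-1.19 ± 0.11, limma, adjusted p = 3.75e-05), HLA-DRA (-1.05 ± 0.13, adjusted p = 0.00028), HLA-DMA (-0.39 ± 0.09, adjusted p = 0.0102) and, in direction only, HLA-DPB1. The combination was higher than MI-2-2 in 4, HLA-DMA, HLA-DMB, CIITA and CD74 (0.57 ± 0.06, adjusted p = 5.16e-05), against 31.7%. Myeloid markers summed to 14.78 to 14.93 with MI-2-2 and 15.39 to 15.45 with the combination, against 14.68 to 14.75 with DMSO. Dendritic cell markers summed to 11.89 to 12.18 with MI-2-2 and 11.21 to 11.3 with the combination, against 12.45 to 12.54 with DMSO, and B-lineage markers to 7.506 to 7.655 with the combination, against 7.509 to 7.722 with DMSO. CD3D, a T cell marker, was higher by 1.77 with the combination (adjusted p = 5.81e-07), and natural killer markers summed to 12.06 to 12.27, against 11.17 to 11.32 with DMSO. Their part in the class II values was not tested.

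**Figure D3:**
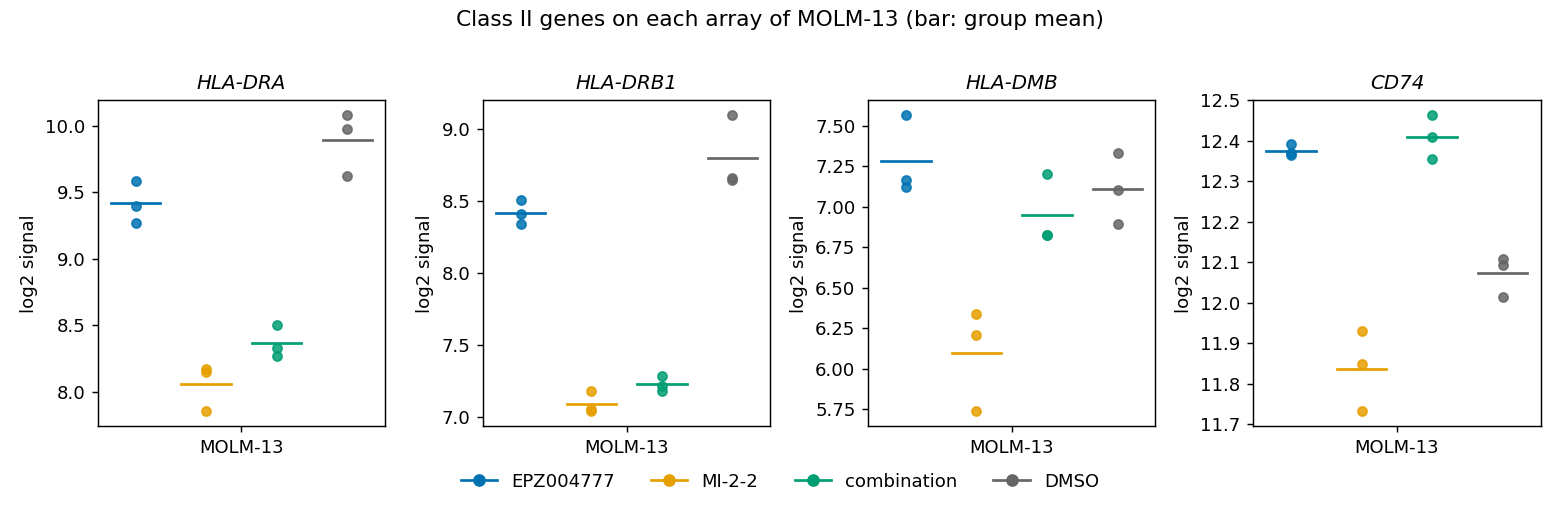
The log2 RMA signal of HLA-DRA, HLA-DRB1, HLA-DMB and CD74 on each array of MOLM-13, with 1 point per array and a bar at each group mean. HLA-DRA and HLA-DRB1 are lowest with MI-2-2 and the combination, HLA-DMB is lowest with MI-2-2, and CD74 is highest with EPZ004777 and the combination.

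In the mouse MLL-AF9 cells the single compounds had no member called, and with the combination Cd74 rose and 4 of the other 7 genes were lower. Cd74 had 8.30, 8.57 and 7.44 with EPZ004777, 7.93, 7.86 and 7.97 with MI-2-2 and 9.51, 9.63 and 8.62 with the combination, against 7.51, 7.43 and 7.60 with DMSO. All 3 combination arrays lay above every array of the other groups, and the change from DMSO was 1.74 ± 0.30 (limma, adjusted p = 0.000643). H2-DMa, the alpha chain of mouse DM, had 10.66, 10.73 and 10.47 with EPZ004777, 10.34, 10.02 and 10.31 with MI-2-2 and 9.40, 9.08 and 9.15 with the combination, against 10.34, 10.82 and 10.74 with DMSO. It changed by -1.43 ± 0.15 with the combination (adjusted p = 2.46e-05, limma). H2-Ab1 had 9.82, 9.75 and 10.31 with EPZ004777, 9.53, 9.55 and 9.68 with MI-2-2 and 8.55, 7.80 and 8.04 with the combination, against 9.80, 8.78 and 8.72 with DMSO. It changed by -0.97 ± 0.29 with the combination (adjusted p = 0.0146, limma), and not without combination replicate 2 (adjusted p = 0.0568).

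H2-Eb1 had 6.16, 5.96 and 5.79 with the combination, against 6.46, 6.64 and 6.38 with DMSO (-0.52 ± 0.13, adjusted p = 0.00535, limma). The probe set annotated to H2-DMb2 and H2-DMb1 together, had 9.70, 9.45 and 9.05 with the combination, against 10.03, 10.10 and 10.06 with DMSO (-0.66 ± 0.18, adjusted p = 0.00813). H2-Aa (0.49 ± 0.21, adjusted p = 0.0597), H2-Oa (-0.08 ± 0.24, adjusted p = 0.775) and Ciita (-0.05 ± 0.13, adjusted p = 0.731) were not called. H2-Oa, the DO alpha chain, had 8.60, 7.43 and 7.81 with the combination, 8.65, 8.86 and 8.75 with EPZ004777 and 8.13, 8.20 and 8.34 with MI-2-2, against 7.91, 8.15 and 8.03 with DMSO. Its combination arrays lay on both sides of DMSO. Ciita had 5.47, 4.99 and 5.15 with the combination, 5.35, 5.20 and 5.39 with EPZ004777 and 5.53, 5.46 and 5.37 with MI-2-2, against 5.31, 5.26 and 5.20 with DMSO, and 8 of these 12 arrays were under percentile 40.

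The mouse combination call of 1 gene higher and 4 lower of 8 is a share near the background, 62.4% of 29657 probe sets, and says nothing particular about these genes. The shares for the combination against EPZ004777 (1 higher and 4 lower, against 61.3%) and against MI-2-2 (2 higher and 4 lower, against 60.8%) were also near it. Against EPZ004777 H2-Ab1 was at -1.83 ± 0.29 (limma, adjusted p = 4e-04), H2-DMa at -1.41 ± 0.15 (adjusted p = 3.31e-05), H2-Oa at -0.81 ± 0.24 (adjusted p = 0.0134) and Cd74 at 1.15 ± 0.30 (adjusted p = 0.00758). EPZ004777 alone (0 called, 3 at an unadjusted p under 0.05 in limma, against 3.21%) and MI-2-2 alone (0 called, 1 unadjusted, against 2.99%) gave no call. The 3 combination arrays differed among themselves: their correlations with the mean DMSO array were 0.905, 0.818 and 0.82, against 0.987 to 0.99 for the single compounds, and their GAPDH 3′ minus 5′ signals 0.597, 1.5 and 2.05, against 0.488 to 0.654 with DMSO. Without combination replicates 2 and 3 Cd74 (2.00, adjusted p = 0.00115) and H2-DMa (-1.23, adjusted p = 0.000867) were still called, H2-Ab1 (-0.55, adjusted p = 0.266), H2-Eb1 (-0.33, adjusted p = 0.0864) and the H2-DMb1 probe set (-0.36, adjusted p = 0.128) were not, and H2-Oa was higher (0.57, adjusted p = 0.0048). Myeloid markers summed to 15.41 to 15.55 with the combination, against 13.6 to 14.27 with DMSO, and B-lineage markers to 8.79 to 9.52, against 10.29 to 10.43 with DMSO, T cell markers to 7.819 to 8.9, against 6.828 to 6.886 with DMSO, natural killer markers to 7.778 to 8.991, against 6.657 to 7.038 with DMSO, and stroma markers to 10.98 to 11.71, against 6.43 to 6.59 with DMSO, with Col1a1, a collagen chain, higher by 6.38. Their part was not tested.

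**Figure D4:**
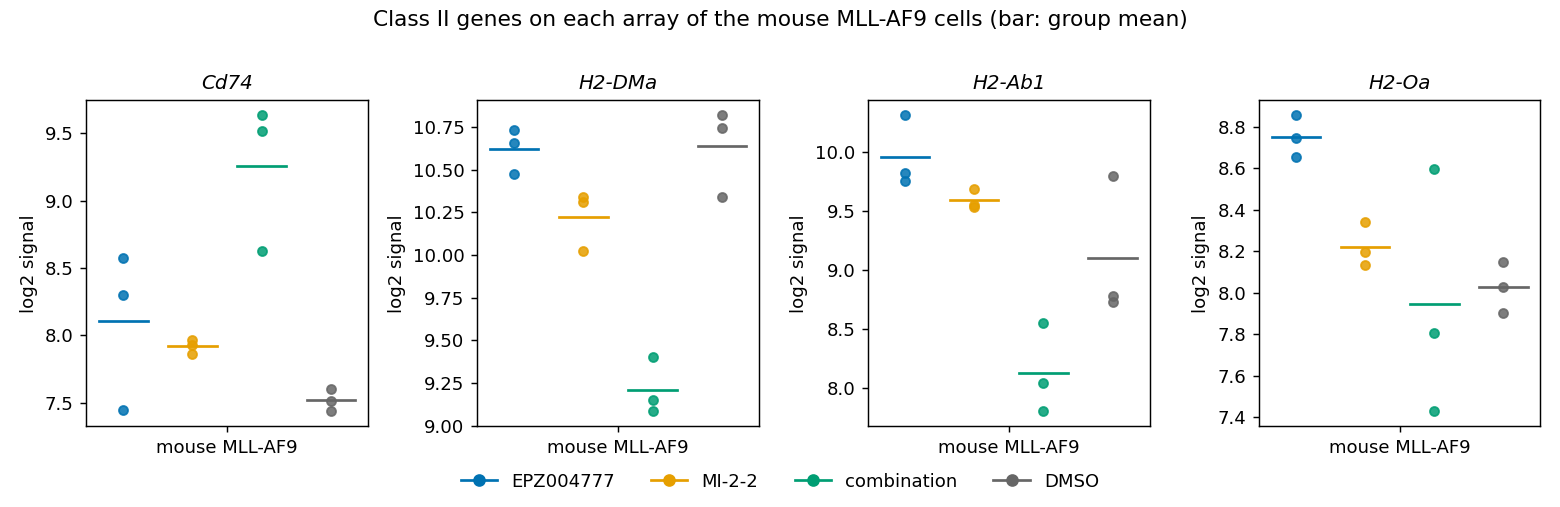
The log2 RMA signal of Cd74, H2-DMa, H2-Ab1 and H2-Oa on each array of the mouse cells, with 1 point per array and a bar at each group mean. The combination arrays are highest for Cd74 and lowest for H2-DMa and H2-Ab1, and those of H2-Oa spread from 7.43 to 8.60.

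Across the 5 cell models CIITA or Ciita was not called against DMSO in any of 15 treatment comparisons. Its probe set was dim on most mouse arrays and on some MOLM-13 arrays, which limits a call there. With MI-2-2 CIITA was lower at an unadjusted p under 0.05 in limma in SEM (-0.23) and in MOLM-13 (-0.49). The part of CIITA in the changes of the other members was not tested. In a fit of all 44 human arrays together CIITA reached a call in MOLM-13 with MI-2-2 (-0.49, adjusted p = 0.0131), the exception among the alternatives run. The genes outside the member list whose pattern was most like it were found over the 12 human treatment changes, among 3840 genes called in at least 3 of them. HLA-DRB6, a pseudogene of the DR region, had a Pearson correlation of 0.934 with the median member change, ARHGEF11 0.933, and the interferon-induced genes IFI6, MX1 and CMPK2 0.93, 0.915 and 0.91. This median covers the representative probe sets of all 10 genes, those too dim to test included. With MI-2-2 in MOLM-13 it was -0.699, and so differs from the median of the tested genes given above. The HLA-DRB6 probe set is of a type that may also bind related transcripts, so its likeness to the members may be built in. The 3 changes of each line share DMSO arrays, so these correlations are descriptions. IFI6, for example, was at 0.83 in SEM and -1.01 in MOLM-13 with the combination, and CMPK2 at 0.82 and -0.68.

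**Figure D5:**
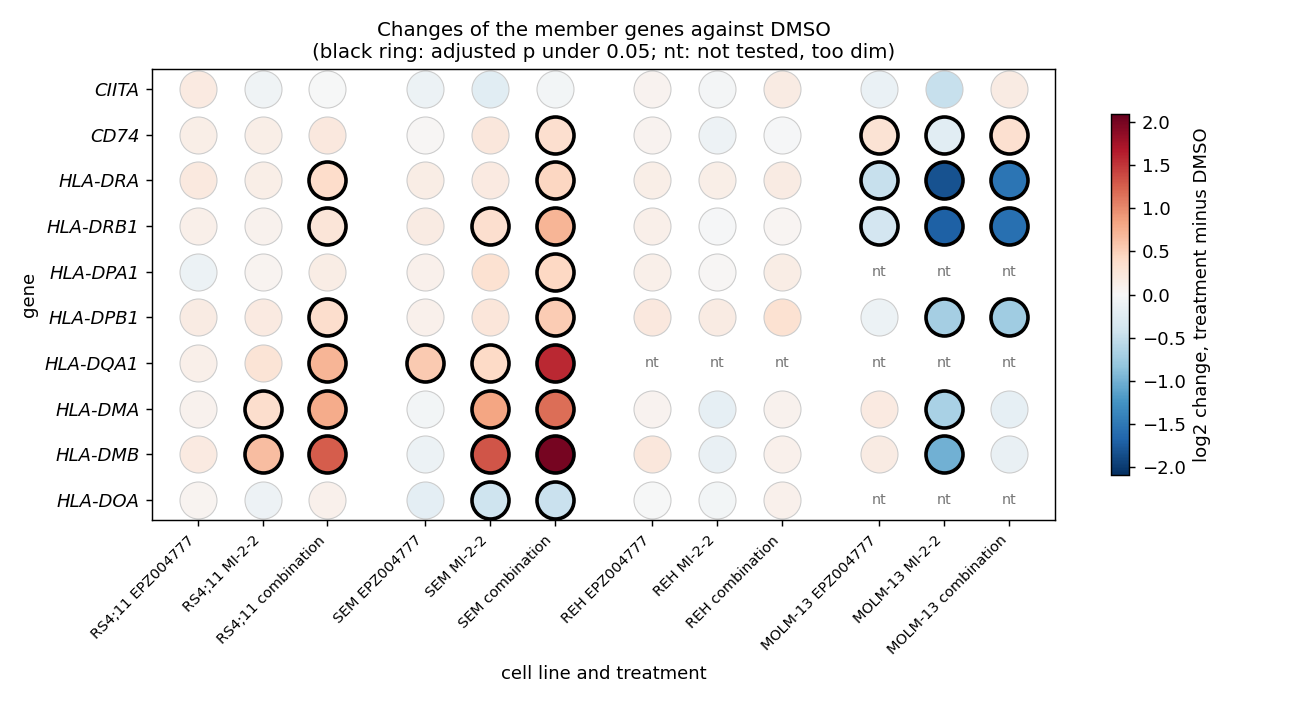
The log2 change against DMSO of each human member gene in each line and treatment, as the color of a circle, with a black ring where the adjusted p was under 0.05 and nt where the probe set was too dim to test. HLA-DMB is reddest, at 2.01 with the combination in SEM, HLA-DRA is bluest, at -1.84 with MI-2-2 in MOLM-13, and the CIITA row has no ring.

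HLA-DQB1, the beta chain that pairs with HLA-DQA1, was outside the list. Its values here come from a probe set annotated to it alone, while other probe sets of the gene also carry further class II symbols. Whether the probe set used also binds related transcripts was not examined. With the combination HLA-DQB1 rose by 0.59 ± 0.08 in RS4;11 (limma, adjusted p = 0.00047), by 0.90 ± 0.07 in SEM (adjusted p = 0.000147) and by 2.02 ± 0.05 in MOLM-13 (adjusted p = 1.29e-09). In MOLM-13 its direction was opposite to that of HLA-DRA and HLA-DRB1, and it rose there with EPZ004777 (1.60 ± 0.05, adjusted p = 3.63e-08) and MI-2-2 (0.30 ± 0.05, adjusted p = 0.00427) too. HLA-DRB6, whose probe set may also bind member transcripts, rose in RS4;11 (0.27) and SEM (0.71) and was lower in MOLM-13 (-0.56) with the combination. In the mouse cells a probe set of H2-DMb2 alone was higher by 2.55 (adjusted p = 5.82e-05) and H2-Ob, the DO beta chain, was at -1.16 (adjusted p = 0.00318). In all 2 of 3 tested genes of this list were higher in RS4;11 and in SEM, 1 was higher and 1 lower in the mouse cells and in MOLM-13, and 0 were called in REH.

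The counts of these and the following lists stand beside the shares of all probe sets called in either direction with the combination, 20.2% in RS4;11, 23.5% in SEM, 4.1% in REH, 62.4% in the mouse cells and 42% in MOLM-13. Of 7 factors bound at class II promoters, NFYC of the NF-Y complex was lower in RS4;11 (-0.26, adjusted p = 0.0162, limma), RFXAP of the RFX complex was higher in SEM (0.42, adjusted p = 0.0223), and none was called in REH. In MOLM-13 3 of 7 were lower, RFX5 (-0.47, adjusted p = 1.74e-05), NFYB (-0.28) and NFYA (-0.16), and in the mouse cells 1 was higher and 3 lower, with Rfx5 at -0.997 (adjusted p = 2.16e-05). In every cell model the count of these 7 factors was near or below the share of all probe sets, and says nothing particular about them. Among factors that drive or repress CIITA, 4 of 14 were higher and 1 lower in RS4;11, with SOCS1, an inhibitor of cytokine signalling, at 0.83, IFNGR1, an interferon gamma receptor chain, at 0.49 and IRF4 at -0.37. In SEM 6 were higher and 3 lower of 14, with PRDM1, a known repressor of CIITA, at 2.37, JAK2 at 1.38 and SPI1, a myeloid transcription factor, at 1.21. In REH 1 of 14 was called, IRF8 at 0.73, near the share there. In MOLM-13 7 were higher and 2 lower of 13, with SOCS1 at -1.94, PRDM1 at 1.27 and JAK2 at 0.69, and in the mouse cells 8 were higher and 3 lower of 14.

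Of the endosomal processing genes, CTSH, a cathepsin, moved most with the combination, at -1.71 in RS4;11 (adjusted p = 1.13e-05, limma), -1.42 in SEM (adjusted p = 0.000339), 0.45 in REH (adjusted p = 0.0465), -0.38 in MOLM-13 and 4.61 for Ctsh in the mouse cells. In RS4;11 it was the only called gene of 9, in SEM 3 of 10 rose beside it (CTSZ 1.02, LGMN 1.01 and CTSB 0.73), in REH it was the only called gene of 11, in MOLM-13 5 of 10 rose and in the mouse cells 7 of 12 rose. Of the genes of class II turnover, MARCHF1, a ubiquitin ligase that removes class II molecules from the surface, was higher by 2.47 in MOLM-13 (adjusted p = 1.51e-07) and Marchf1 by 4.36 in the mouse cells (adjusted p = 2.91e-05). In that list 6 of 8 rose in MOLM-13, 5 of 6 in the mouse cells and 2 of 8 in RS4;11 (CD82 0.635 and CD83 0.54), 2 rose and 2 fell of 8 in SEM, and none was called in REH. The 2 of 8 in RS4;11 is near its background of 20.2%, and the only called processing gene of 9 there is below it. The 7 of 12 processing genes in the mouse cells stand beside 62.4% of probe sets called there in either direction. Class I genes, which present peptides from the cytosol, were called in 0 of 13 in RS4;11 and in REH. In SEM NLRC5, their co-activator, was higher (0.88, adjusted p = 0.00224) and HLA-E lower (-0.45) of 13. In MOLM-13 10 of 13 were higher, led by NLRC5 (1.75, adjusted p = 1.55e-07) and HLA-F (0.99), and TAP2 was lower (-0.68), and in the mouse cells 4 of 11 were lower and none higher. Except in MOLM-13, these class I counts were below the shares of all probe sets called.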

How the data were processed

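Total RNA was amplified and labelled for arrays, per the labels' protocols. The deposited log2 signals were made by the authors with RMA in affy under R 3.0.2, per the submitters' processing notes. No raw scanner values were used here. The MOLM-13 arrays appear to have been normalized apart from the other human lines (99th percentiles of 13.45 to 13.47, against 12.72 to 12.80), so the planned comparisons of DMSO levels with MOLM-13 were not made.

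In each of the 5 cell models, probe sets whose signal passed percentile 40 of its array on 2 or more arrays were fitted with limma 3.58.1 in R 4.3.3, and p-values were adjusted over all of them. The fits were tested on simulated data. A gene is represented by its probe set annotated to a single symbol with the highest mean over all arrays. H2-DMb1 has only probe sets annotated to several symbols. Per-array values are given for HLA-DMB, HLA-DMA, CD74, CIITA, HLA-DRA and members called with a log2 change of at least 1, and for some others chosen after their values were seen. Up to 3 genes are named per further list, by size of change, and the others named were chosen after their values were seen. Likeness was ranked over genes called in at least 3 comparisons. The members and lists were chosen with earlier results of these data known.

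Replicate numbers did not pair the arrays. Alternatives were the replicate block, a fit of all 44 human arrays, no filter, 1 probe set per gene, the mean of probe sets, a further quantile normalization and leaving out arrays. Some mouse symbols without a probe set of their own were not analysed here.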

Additional observations from a re-analysis of the deposited data

Results flagged for a closer look

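The change against DMSO differed between REH and the KMT2A-AFF1 lines in 9 results, 2 of them on dim REH arrays, by a test of the difference itself in limma on 32 arrays. Each value is the mean change in RS4;11 and SEM minus the change in REH, on the log2 scale. SEM enters every mean, and its MI-2-2 and combination groups cannot be told apart from the actin 3′ minus 5′ signal. With single lines the fusion cannot be told apart from other differences between the lines. For the combination, HLA-DMB differed by 1.53 ± 0.15 (adjusted p = 5.45e-08), with changes of 1.27 in RS4;11, 2.01 in SEM and 0.10 in REH. HLA-DMA differed by 0.88 ± 0.13 (adjusted p = 2.94e-05), with 0.77, 1.17 and 0.09 in the same order. The fitted value of HLA-DQA1 was 1.56 ± 0.25 (adjusted p = 9.06e-05), with 0.71, 1.58 and -0.41. Its probe set was under percentile 40 on every REH array, so this is not a measured difference, and the HLA-DQA1 probe set with signal in REH gave -0.12 ± 0.20 (adjusted p = 0.732). A probe set shared with HLA-DQA2 gave 1.03 ± 0.20 (adjusted p = 0.000806, limma) and a further one 1.37 ± 0.23 (adjusted p = 0.000138). HLA-DRB1 differed by 0.46 ± 0.10 (adjusted p = 0.00326), with 0.27, 0.72 and 0.04, and CD74 by 0.31 ± 0.10 (adjusted p = 0.0295), with 0.22, 0.36 and -0.02.

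For MI-2-2, HLA-DMB differed by 1.14 ± 0.15 (adjusted p = 1.58e-05), with 0.65 in RS4;11, 1.32 in SEM and -0.16 in REH. HLA-DMA differed by 0.78 ± 0.13 (adjusted p = 0.000324), with 0.36, 0.83 and -0.19. CD74 differed by 0.30 ± 0.10 (adjusted p = 0.0487), with 0.14, 0.24 and -0.11. HLA-DQA1 had a fitted value of 0.83 ± 0.25 (adjusted p = 0.0339), with 0.29, 0.42 and -0.48, on the same dim REH arrays, and -0.03 ± 0.20 (adjusted p = 0.933) by the probe set with signal in REH. The probe set shared with HLA-DQA2 gave 0.50 ± 0.20 (adjusted p = 0.108, limma) and the further one 0.85 ± 0.23 (adjusted p = 0.018). The CD74 values were not called in 6 of 15 fits that each left out 1 array for the combination and in 11 of 15 for MI-2-2, and HLA-DQA1 for MI-2-2 was not called in 9 of 15.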

How the results depend on the processing

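HLA-DMB and HLA-DMA stayed called with the combination against DMSO in RS4;11 under every alternative run, and in SEM under every one except the actin covariate, chosen after seeing the data. With that covariate the genes called in SEM were 0 for EPZ004777, 0 for MI-2-2, 0 for the combination, 0 for the combination against EPZ004777 and 1 against MI-2-2, in place of 1, 5, 9, 9 and 2. Over all 34920 probe sets that fit called 397, 0, 0, 0 and 745 in the same order. Replicate numbers did not pair the arrays: correlations of same-numbered arrays ran from -0.429 to 0.243 in RS4;11, -0.289 to 0.271 in SEM, -0.511 to 0.489 in REH, -0.211 to 0.238 in MOLM-13 and -0.374 to 0.251 in the mouse cells. With the replicate block the counts in SEM were 0 for EPZ004777, 2 for MI-2-2, 5 for the combination against EPZ004777 and 1 against MI-2-2, and the MI-2-2 difference between lines had 2 genes in place of 4. Over all 34920 probe sets of SEM the block called 534, 1470, 3826 and 406 in the same order, in place of 2190, 4041, 6584 and 924. The fit of 44 arrays gave 2 genes in place of 4 for the combination against MI-2-2 in RS4;11, 0 for EPZ004777 in SEM and 1 for the combination in REH. Of all 40491 probe sets it called 1961, 4139 and 5197 in the same order. Without the filter SEM had 1 gene for the combination against MI-2-2, beside 765 of 54613 probe sets. The mean of probe sets gave 2 genes for EPZ004777 in SEM and 1 for the combination in REH, beside 1355 of 12429 and 986 of 12337 genes. A single probe set per gene gave 1 each for EPZ004777 and the combination in REH, beside 552 and 1039 of 12334 genes. Without mouse combination replicates 2 and 3, also chosen after seeing the data, the counts were 3 for the combination against DMSO, 3 against EPZ004777 and 3 against MI-2-2, in place of 5, 5 and 6. Without REH DMSO replicates 1 and 3 the MI-2-2 difference between lines had 2 genes.

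Of single genes, 3 values changed sign where the main fit or the alternative made a call. Sign changes with no call in either fit were not counted. HLA-DOA in SEM, combination against EPZ004777, was 0.018 (adjusted p = 0.853) as the mean of its probe sets, and H2-Oa was 0.57 (adjusted p = 0.0048) against DMSO and 0.38 (adjusted p = 0.0343) against MI-2-2 without mouse combination replicates 2 and 3. The cause was not tested.

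With 1 array left out, RS4;11 had 1 to 3 genes for MI-2-2. SEM had 0 to 1 for EPZ004777, 2 to 2 for MI-2-2, 4 to 8 for the combination against EPZ004777 and 1 to 1 against MI-2-2. MOLM-13 had 1 to 3 for EPZ004777 and the mouse cells 0 to 1 for EPZ004777. The differences between lines had 0 to 1 for EPZ004777 and 2 to 4 for MI-2-2, and the DMSO levels 1 to 1 for SEM minus RS4;11 and 5 to 7 for SEM minus REH. In these fits of single cell models fewer of all probe sets were called too, except for EPZ004777 in SEM without EPZ004777 replicate 1. A smaller count there thus says nothing particular about the member genes. For the comparisons between lines the totals were not counted. A group left with 1 array was assumed to vary like the others. Depth here is the number of arrays, 2 or 3 per group.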
